A study of Homo sapiens with 4 samples.

Results

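The oligoadenylate synthetase (OAS) family consists in humans of the 4 genes OAS1, OAS2, OAS3 and OASL, which were taken by their Ensembl identifiers from the 58676 genes of the deposited count table. All 4 were among the 17524 genes that passed the low-count filter, with at least 55 reads in every library, so none passed through one group alone. The libraries came from U2OS, an established human osteosarcoma cell line. In 2 libraries the cells had been given a control single-domain antibody (sdAb, a small antibody fragment made of one variable domain), and in 2 they had been given an sdAb against MN1, a transcriptional coregulator; the labels call these cells M11, a name they do not explain. Dose, exposure time and the route by which the sdAb reached the cells are not stated in the sources at hand. Nor do they say whether replicates were separate cultures, so the p-values reflect library-to-library spread that may be technical only.

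OAS1, OAS2 and OAS3 are enzymes that are switched on by double-stranded RNA, a sign of viral infection. They then join ATP into short chains of adenylate with an unusual 2′,5′ linkage, called 2-5A. 2-5A sets off the cutting of single-stranded RNA of virus and host, which halts protein synthesis. OASL has the family fold but makes no 2-5A in humans; it carries ubiquitin-like domains at its end and is known to enhance signalling by the RNA sensor RIG-I. All of these genes are textbook targets of interferon, whose signal reaches them through the transcription factor ISGF3, which binds interferon-stimulated response elements in their promoters.

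OAS1, OAS3 and OAS2 lie in this order within 104947 bases of chromosome 12, all on the plus strand (GRCh38, GENCODE release 29). OAS1 (ENSG00000089127) spans chr12:112906777-112933222, OAS3 (ENSG00000111331) chr12:112938352-112973249 and OAS2 (ENSG00000111335) chr12:112978395-113011723. OASL (ENSG00000135114) lies apart on the minus strand of the same chromosome, at chr12:121019111-121039242. The counts cover whole genes, so transcripts of one gene cannot be told apart. Reads were unlikely to be split among the relatives, since no window of 50 bases from the longest transcript of OAS2, OAS3 or OASL occurs in another gene and 2.32% of those of OAS1 do. An antisense gene overlaps 1.86% of the exonic bases of OAS1 and held 1 read over all 4 libraries.

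RefSeq promoter sequences (GRCh38.p14) were at hand for 2 of the 4 members, OAS1 and OAS3, which rose together with the rest of the family as described below. The 250 bases before the RefSeq transcript start, which lies 185 bases inside the GENCODE gene for OAS1 and 122 inside it for OAS3, are shown 5′ to 3′ on the plus strand, with capitals for matches to the core of the interferon-stimulated response element (GAAANNGAAA) and to the shorter core bound by interferon regulatory factors (AANNGAAA), which lies within the first. The first sequence is chr12:112906712-112906961 and the second chr12:112938224-112938473.
OAS1: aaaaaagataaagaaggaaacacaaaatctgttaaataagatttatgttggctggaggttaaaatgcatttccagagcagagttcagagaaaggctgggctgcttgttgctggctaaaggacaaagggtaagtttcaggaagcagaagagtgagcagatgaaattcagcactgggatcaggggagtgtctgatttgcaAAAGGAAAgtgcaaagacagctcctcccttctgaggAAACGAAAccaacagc
OAS3: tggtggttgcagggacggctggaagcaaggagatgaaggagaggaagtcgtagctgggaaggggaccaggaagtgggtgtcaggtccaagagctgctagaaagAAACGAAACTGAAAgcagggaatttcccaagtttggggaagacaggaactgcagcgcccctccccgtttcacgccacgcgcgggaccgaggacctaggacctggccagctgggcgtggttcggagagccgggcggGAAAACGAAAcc

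The OAS3 window held GAAANNGAAA at 2 places, with first bases at positions -143 and -12 from the RefSeq start. On both strands this motif was present in 3.02% of 35116 promoter windows of the same length. The OAS1 window held the shorter AANNGAAA without the longer motif, at positions -52 and -16, a motif found in 20.3% of the windows. At -16 the match is preceded by a G, giving GAAACGAAA, whose spacer is shorter than the NN of the longer motif. Forms with that spacer were not searched for, so the search does not show that OAS1 lacks a response element. The OAS1 window also held TTCNNNGAA, the letters of a site for STAT dimers, at position -168, against 6.57% of the windows. For comparison, GAAANNGAAA was in 29 of 49 windows, from 36 genes, of the other interferon-stimulated genes listed for this work. AANNGAAA was in 41 and TTCNNNGAA in 11 of these 49 windows. A match of letters is a description of the window and not a measured binding site.

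All 4 members were higher in the cells given the anti-MN1 sdAb. OASL rose the most, 13.3-fold, followed by OAS2 at 3.91-fold, OAS1 at 2.78-fold and OAS3 at 1.96-fold. All 4 were called higher at an adjusted p under 0.05 (quasi-likelihood test of edgeR, Benjamini-Hochberg over all tested genes), against 23.7% of the 17524 tested genes. In all 4, both anti-MN1 libraries stood above both controls, which was so for 35.3% of tested genes. At least 2-fold and called were 3 of the 4, against 1.91% of tested genes. In these bulk libraries a change in the number of expressing cells and a change in RNA per cell cannot be told apart.

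OAS1 encodes the smallest of the synthetases, with a single catalytic domain. Its level in TMM-scaled CPM (read counts relative to library size) was 7.76 and 7.47 in control libraries and 20.6 and 21.7 in anti-MN1 libraries, from 125, 129, 322 and 336 reads. The libraries of a group lay close together and the groups did not overlap. In edgeR the log2 fold change was 1.47 ± 0.13 (SE; adjusted p = 2.46e-21). It ranked 145 among the 17524 tested genes, so that 0.822% of them had a larger fold change.

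OAS2 encodes a synthetase with tandem OAS domains and was the least abundant member. Control libraries had 3.60 and 3.18 CPM and anti-MN1 libraries 11.8 and 14.7 CPM, from 58, 55, 185 and 228 reads. It was the member whose anti-MN1 libraries differed most from each other on the log2 scale, with replicate 2 the higher, and its groups did not overlap. Its log2 fold change in edgeR was 1.97 ± 0.18 (SE; adjusted p = 1.27e-20). Without anti-MN1 replicate 2 it was 1.81, and without anti-MN1 replicate 1 it was 2.13.

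OAS3 encodes the largest synthetase, which also has tandem OAS domains and is known as the main source of 2-5A in several human cell lines. Its control levels were 59.3 and 57.4 CPM and its anti-MN1 levels 117 and 112 CPM, from 956, 991, 1825 and 1733 reads. OAS3 was the most abundant member by CPM in every library, rose by the smallest factor, and was measured with the smallest error. Its edgeR log2 fold change was 0.97 ± 0.06 (SE; adjusted p = 6.22e-40). This lies at the edge of a 2-fold change, and without anti-MN1 replicate 2 it was 1.01.

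OASL, the member without synthetase activity, had 5.89 and 6.31 CPM in control libraries, against 77.4 and 85.1 CPM in anti-MN1 libraries, from 95, 109, 1211 and 1317 reads. Each anti-MN1 library thus held more than 10 times the OASL level of either control. By edgeR the log2 fold change was 3.73 ± 0.10 (SE; adjusted p = 2.98e-92). OASL ranked 5 by fold change and 6 by p among the 17524 tested genes.

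**Figure D1:**
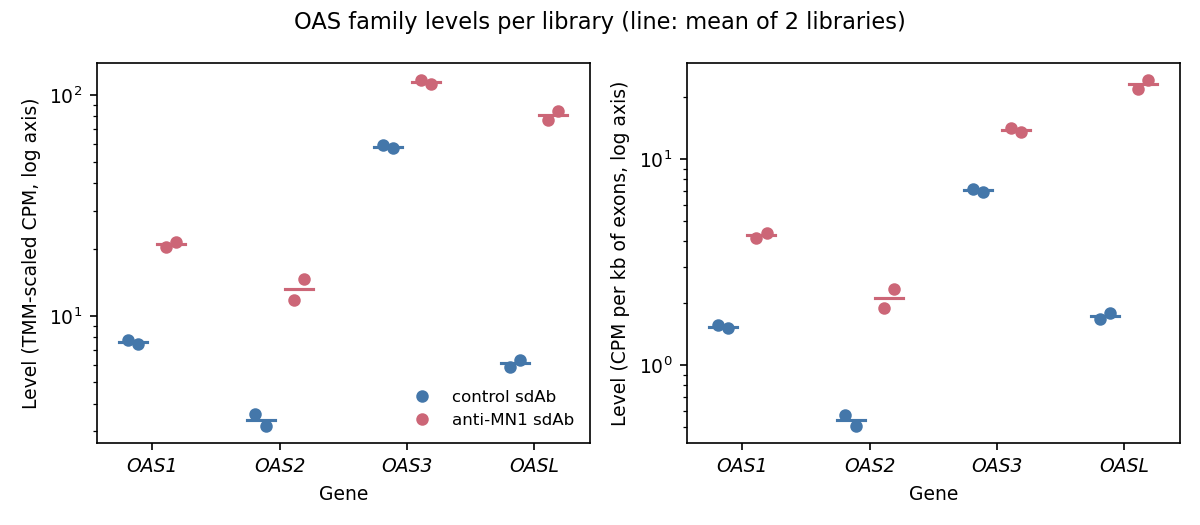
Levels of the 4 OAS family genes in each library on log axes, as TMM-scaled CPM on the left and as CPM per kb of exons on the right; points are libraries and lines are means of 2 libraries. The anti-MN1 libraries stood above the controls for every gene, and OASL moved from 6.10 to 81.3 CPM.

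Divided by exonic length, the levels also changed order. In the controls OAS3 was highest at 7.07 ± 0.17 CPM per kb, followed by OASL at 1.74 ± 0.08, OAS1 at 1.54 ± 0.04 and OAS2 at 0.541 ± 0.047 (SD, n = 2). OASL and OAS1 were neighbours there, at 1.68 and 1.79 against 1.57 and 1.51 CPM per kb, a gap little larger than the spread. With the anti-MN1 sdAb, OASL was highest at 23.1 ± 1.53 CPM per kb, ahead of OAS3 at 13.9 ± 0.41, OAS1 at 4.28 ± 0.16 and OAS2 at 2.12 ± 0.33. By this measure OASL moved from above 49.2% to above 89.7% of 19922 protein-coding genes, and OAS3 from above 71.0% to above 82.7%. OAS2, the lowest member, moved from above 38.2% to above 52.4%. Exonic length here is the union of the exons of all annotated transcripts, so a gene expressed from short transcripts is underestimated.

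The make-up of the family signal shifted towards OASL, as the plot of family shares shows. Summed over the family, control libraries had 76.6 and 74.3 CPM and anti-MN1 libraries 227 and 233 CPM. OASL held 7.70% (95% exact Clopper-Pearson interval 6.27 to 9.33) and 8.49% (7.02 to 10.1) of the family's reads in the controls. In the anti-MN1 libraries it held 34.2% (32.6 to 35.8) and 36.4% (34.9 to 38.0), intervals that cover counting error only. The share of OAS3 was 77.3 ± 0.205% of the reads in the controls and 49.7 ± 2.52% with the anti-MN1 sdAb (SD, n = 2). The share of OAS1 was 10.1 ± 0.0566% of the reads in the controls and 9.19 ± 0.148% with the anti-MN1 sdAb. Per kb of exons, OASL held 15.9 ± 1.02% of the family signal in the controls and 53.3 ± 1.56% with the anti-MN1 sdAb, while OAS1 held 14.2% and 14.0% in the controls and 9.86% in each anti-MN1 library. The shares of OASL did not overlap between groups, but 2 libraries against 2 cannot go below an exact 2-sided permutation p of 0.33, the value reached here.

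**Figure D2:**
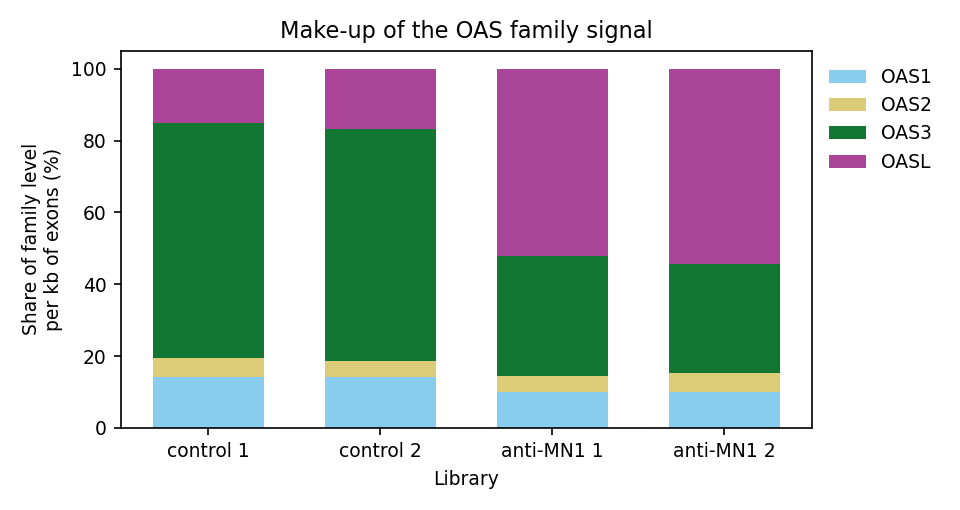
Share of each gene in the summed level of the OAS family per kb of exons (percent, y axis) in each of the 4 libraries (x axis). OAS3 was the largest part in the controls (65.3% and 64.6%) and OASL in the anti-MN1 libraries (52.2% and 54.4%).

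The members did not rise by the same factor. Over the 6 pairs, the difference in log2 fold change was largest between OASL and OAS3, at 2.76 (95% interval 2.54 to 2.98, from the SEs of the fit and not adjusted for the number of pairs). OASL exceeded OAS1 by 2.26 (1.93 to 2.58) and OAS2 by 1.76 (1.36 to 2.17). Among the synthetases that are neighbours on the chromosome, OAS2 exceeded OAS3 by 0.998 (0.63 to 1.37) and OAS1 exceeded OAS3 by 0.50 (0.22 to 0.79). The difference between OAS2 and OAS1 was the smallest, at 0.49 (0.06 to 0.93), an unadjusted interval that nearly reaches 0. With DESeq2 the log2 fold changes of OAS2 and OAS1 were 1.98 ± 0.24 and 1.48 ± 0.17 (SE). Without anti-MN1 replicate 2 they were 1.81 and 1.44, so this pair is not firmly set apart. Within libraries, the log2 ratio of OAS2 to OAS1 reads was -1.11 and -1.23 for the control sdAb, against -0.80 and -0.56 for the anti-MN1 sdAb. These ratios do not depend on library size and did not overlap between the groups. Their exact 2-sided permutation p was 0.33, the lowest that 2 libraries against 2 can give. They rest on the same reads as the fold changes.

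Other genes of the 2-5A pathway went both ways, with 2 of the 5 on the list called higher and 1 lower, against 23.7% and 21.6% of all tested genes. ABCE1, a ribosome recycling factor, rose from 110 ± 1.29 to 150 ± 0.277 CPM (SD, n = 2), and 25.6% of its windows occur in other genes. PDE12, a phosphodiesterase that degrades 2-5A, rose 1.29-fold from 51.5 to 66.5 CPM. CNP, a myelin phosphodiesterase of cyclic nucleotides that can cut 2-5A in vitro, fell by 0.29 on the log2 scale. AKAP7, an anchoring protein whose mouse form degrades 2-5A, was at 4.99 ± 1.53 and 5.47 ± 0.765 CPM and its groups overlapped. The median log2 fold change of the 5 genes on the list was 0.12, against -0.004 over all tested genes.

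Among genes of other proteins with the OAS-like nucleotidyltransferase fold, 3 of 8 tested were called higher and 1 lower, with a median log2 fold change of 0.04. Over all tested genes 23.7% were called higher and 21.6% lower. CGAS, the DNA sensor that makes a cyclic dinucleotide by related chemistry, rose 1.69-fold from 15.8 and 16.9 CPM to 27.6 and 27.7 CPM. ZFR, a zinc finger RNA-binding protein gene, rose 1.20-fold. MB21D2, a gene of the same fold with no settled role, fell by 0.22 on the log2 scale with an adjusted p of 0.0491 in edgeR, a call that was lost in 8 of the 11 other settings tried.

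Of 14 tested genes of double-stranded RNA sensing, 9 were called higher and 3 lower, against 23.7% and 21.6% of all tested genes. Their median log2 fold change was 0.26. Beside log2 fold changes of 0.97 to 1.97 for the synthetases, the 3 helicase sensors had 1.53 to 2.14. RIGI, the sensor with which OASL works, rose 4.40-fold from 15.4 and 13.6 CPM to 66.3 and 61.1 CPM. IFIH1, the sensor MDA5, rose 2.89-fold from 5.22 to 15.1 CPM, and DHX58, the regulatory helicase LGP2, rose 4.18-fold from 0.993 and 2.37 CPM to 7.99 and 6.27 CPM. DHX9, an abundant RNA helicase gene, rose 1.21-fold. The 3 called lower were NLRP1, MAVS and STAU1, at log2 fold changes of -0.72, -0.33 and -0.13, named after their values were seen.

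Among receptors, kinases, factors and SOCS inhibitors of the interferon signal to the OAS promoters, every called change was smaller than that of OAS3. Of 16 tested genes of this list, 7 were called higher and 1 lower, against 23.7% and 21.6% of all tested genes. No called change reached 2-fold, and the median log2 fold change was 0.14. Under upper-quartile scaling 3 were higher and 2 lower. The largest log2 fold change was that of SOCS1, at -1.31 (1.04 to 0.418 CPM), which was not called (adjusted p = 0.0538 in edgeR). IRF9, at 1.01 and 0.997 CPM, was not called either, and 100% of its windows occur in another gene. SOCS1 and IRF9 were named after their values were seen. IRF2, a regulatory factor of the same DNA motif, rose 1.47-fold from 12.3 to 18.2 CPM. IFNGR1, a chain of the interferon gamma receptor, rose 1.24-fold. Its partner IFNGR2 fell by 0.37 on the log2 scale, a call that was lost with DESeq2 (adjusted p = 0.238) and without control replicate 2 (0.343 in edgeR), which stood at 47.1 CPM against 35.1 CPM in replicate 1. IFNAR2 and IFNLR1, named after their values were seen, were below the filter, and 84.5% of the IFNAR2 windows occur in other genes. Of 9 interferon genes, IFNE alone passed the filter, at 1.39 ± 0.322 and 1.54 ± 0.353 CPM, with groups that overlapped. The 5 genes IFNB1, IFNA2, IFNL1, IFNL2 and IFNL3, also named after their values were seen, had no read in any library, which allows up to 0.174 to 0.194 CPM per library at 3 counts.

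The ISG15 system, which like OASL uses a ubiquitin-like fold, had 3 of 6 tested genes higher and 1 lower. Over all tested genes the shares were 23.7% and 21.6%. ISG15 itself rose from 32.3 ± 2.49 to 201 ± 0.051 CPM (SD, n = 2). The ligase gene HERC5 rose 4.96-fold and its relative HERC6 2.46-fold, while UBE2L6, the conjugating enzyme gene, fell by 0.52 on the log2 scale. Of 40 tested other interferon-stimulated genes, 31 were called higher, 16 of them at least 2-fold, and 3 lower (23.7%, 1.91% and 21.6% across tested genes). Their median log2 fold change was 0.76. By size of change OASL stood above all 40 of them, while 7 exceeded OAS2, 10 exceeded OAS1 and 16 exceeded OAS3. IFIT2, IFIT3, IFI6 and IFI44, antiviral genes with the smallest p in the list, had log2 fold changes of 2.77, 2.60, 2.50 and 2.26. The genes called lower were TRIM22, GBP2 and RTP4, at -0.48, -0.44 and -1.82, named after their values were seen. RTP4 had few reads, 10 and 25 in control and 2 and 7 in anti-MN1 libraries, and an SE of 0.63. With DESeq2 only 1 gene of this list was called lower. No test compared the family with these lists.

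**Figure D3:**
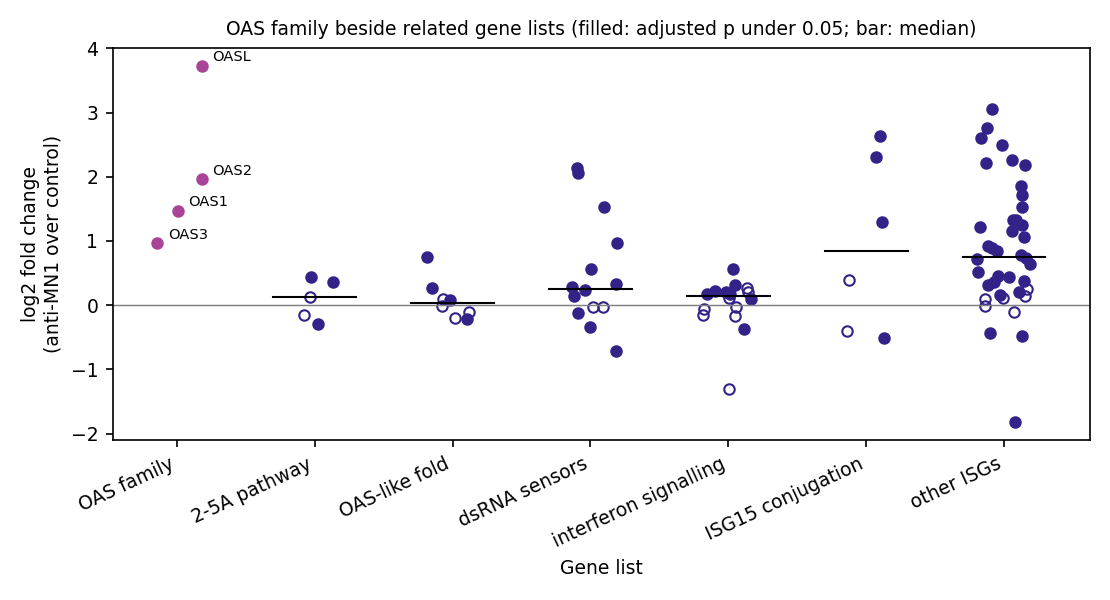
log2 fold change (anti-MN1 over control, y axis) of each tested gene in the OAS family and in 6 related gene lists (x axis); filled points had an adjusted p under 0.05, open points did not, and bars mark list medians. OASL at 3.73 lies above every gene of the lists, and the interferon signalling list has its median at 0.14.

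No neighbouring gene on chromosome 12 showed a rise of the size seen in the family. Within 1 Mb of the OAS1-OAS3-OAS2 cluster, 20 other tested genes had a median log2 fold change of -0.01 and a range from -1.41 to 0.40, with 5 higher and 5 lower. Within 1 Mb of OASL, 38 other tested genes had a median of 0.06 and a range from -1.11 to 0.57, with 7 higher and 8 lower. Over all tested genes 23.7% were called higher and 21.6% lower, so the counts around both loci were near the background. DTX1, the next protein-coding gene after OAS2, lies 44986 bases away and encodes a regulator of Notch signalling. It fell from 8.44 and 8.80 CPM to 4.99 and 4.97 CPM. RPH3A, a synaptic vesicle gene 7896 bases before OAS1, had at most 7 reads in a library and was not tested. P2RX7, an ATP-gated channel gene 93577 bases from OASL, had 0.993 and 0.695 CPM in control libraries, against 0.128 and 0.646 CPM in anti-MN1 libraries, and was not called.

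**Figure D4:**
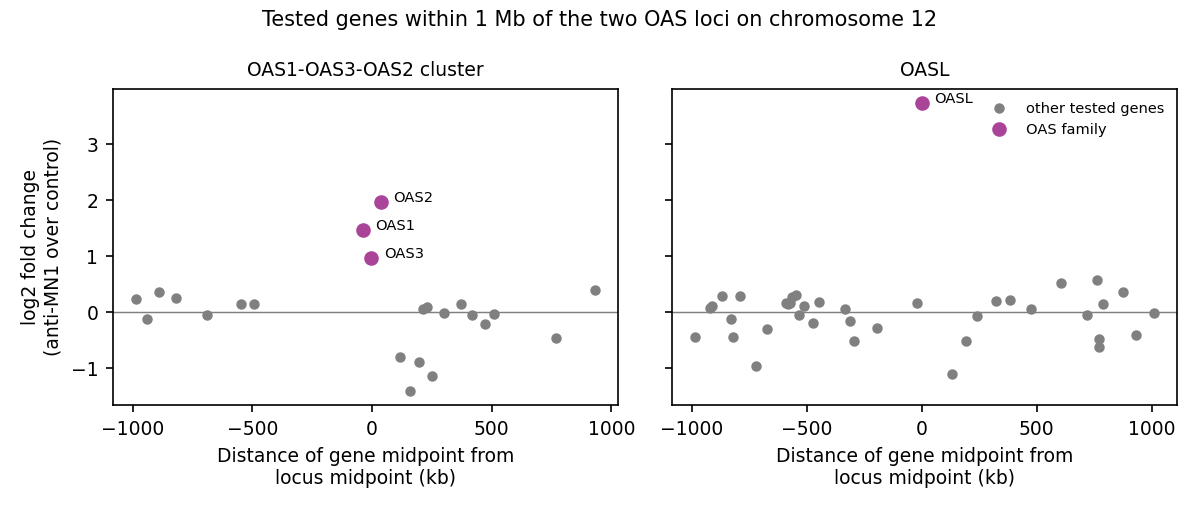
log2 fold change (anti-MN1 over control, y axis) of tested genes within 1 Mb of the OAS1-OAS3-OAS2 cluster (left) and of OASL (right), by distance of the gene's midpoint from the midpoint of the locus in kb (x axis). The OAS family genes lie between 0.97 and 3.73 and all other genes at or below 0.57.

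Genes whose profile was most like that of each member were sought among 11745 other tested genes whose mean level was 5 CPM or more. The measure was the Euclidean distance over the 4 libraries between log2 CPM values centred on each gene's control mean, a description over 2 groups of 2 libraries. The nearest to OAS1 were DUSP4, MAL2 and TXNIP, at distances of 0.105 to 0.107, and to OAS3 TUBA4A, PCDH7 and CCDC86, at 0.037 to 0.059. The nearest to OAS2 were PTX3, IFIT1 and FGF5, at 0.24 to 0.35. OASL had no close match, with IFI27, NT5E and ESM1 nearest at 1.07 to 1.28. The distance follows the fold change closely, and OASL ranked 5 by fold change, so few genes could lie near it. PTX3, FGF5, IFI27, NT5E and ESM1 had control means of 1.35 to 4.93 CPM, so they met the level limit only through the anti-MN1 libraries. No member was among the nearest 3 of another. IFIT1 and IFI27 were the interferon-stimulated genes of the list among these 12.

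The libraries held 15740268 to 16816893 reads each, and 99.8% of the reads of each fell in tested genes. Of 9 osteoblast lineage markers, COL1A1 was highest (493 CPM in control and 162 CPM in anti-MN1 libraries), and SP7 and IBSP were at 0 in all libraries. Summed over the 9, control libraries had 783 and 796 CPM and anti-MN1 libraries 301 and 304 CPM, lower where the OAS genes were higher. Most of this sum was COL1A1 and SPARC (257 to 114 CPM). Of the 5 tested markers 3 were called lower and 0 higher, against 21.6% and 23.7% of tested genes. ALPL (1.68 to 2.73 CPM) and SPP1 (3.86 to 4.27 CPM) did not fall and were not called. SPARC, ALPL and SPP1 were named after their values were seen. The part of these markers in the result was not tested. Summed over 15 blood markers, control libraries had 6.08 and 7.18 CPM and anti-MN1 libraries 3.90 and 4.39 CPM, with CD3E, CD68 and HBB at 0 throughout (97.4% of the CD68 windows occur in other genes) and CD4 the highest at 1.69 CPM in the controls. Over 6 endothelial markers these sums were 9.80 and 8.69 CPM against 6.33 and 6.65 CPM, with TEK the highest at 4.27 CPM in the controls. Neither sum was higher in the libraries with more OAS transcript, but 11 of the 15 blood and 2 of the 6 endothelial markers were below the filter. The part of blood and endothelial markers in the result was not tested either.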

How the data were processed

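RNA sequencing libraries of 4 U2OS samples, 2 per group, were analysed from the authors' deposited table of raw read counts per gene (counts, not normalized, as read from the values). Bowtie2, HTSeq and hg38 (GRCh38) are named in the submitters' processing notes; for versions, roles, annotation and strand, nothing is given in the sources used here. Identifiers were matched to symbols and GENCODE release 29. Counts were tested in R 4.3.3 with edgeR 4.0.16 (filterByExpr at its default minimum count of 10, TMM, quasi-likelihood fit with robust prior, no covariate, Benjamini-Hochberg adjustment over 17524 genes, threshold 0.05). The median prior degrees of freedom were 209, so p-values rest mostly on a spread shared across genes. Levels are TMM-scaled CPM; SE is the log2 fold change divided by the root of the test statistic, and 95% intervals assume normal errors. For simulated counts of this comparison (17121 genes tested), calls were made for 29 of 50 genes at a true 1.5-fold change and 41 of 50 at 2-fold. They were made for 49 of 50 at 4-fold and for 3 of 16921 without change. The simulation took the spread fitted to these libraries and changed far fewer genes, so it cannot test that spread. Replicate libraries differed by more than sampling noise (chi-square per degree of freedom 2.29 and 2.01). Alternatives were RLE and upper-quartile scaling, no filter, DESeq2 1.42.0, limma-voom (limma 3.58.1), a replicate block and leaving out each library; the fit without a robust prior was chosen after seeing the data. The members and lists were chosen with earlier results of these data known. Named were the members, the 2-5A list, up to 4 genes of smallest p per other list, the highest marker per marker list, the 3 nearest profiles per member and the flanking protein-coding genes. Some genes that this rule names are not reported here.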

Additional observations from a re-analysis of the deposited data

How the results depend on the processing

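The rises of OAS1, OAS2, OAS3 and OASL kept their direction and their call in all 11 alternatives, with log2 fold changes of 1.39 to 1.52, 1.81 to 2.13, 0.89 to 1.01 and 3.65 to 3.81. With the replicate block they were 1.47, 1.97, 0.97 and 3.73. Same-numbered libraries showed no shared deviation over all tested genes (correlation -0.003), a value that sampling noise pulls towards 0 and that cannot exclude a pairing. The block called 4147 genes higher and 3732 lower, against 4153 and 3789. Upper-quartile scaling gave 3058 higher and 4985 lower (38.0% higher, against 52.3%) and shifted the median of all genes to -0.09. The rise of the OASL share, 27.2 percentage points of reads, was 37.3 per kb of exons and 26.1 to 28.4 when leaving out a library.

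Counts in the lists moved by more than 1.5 times in places. Among interferon signalling genes, 3 were higher and 2 lower under upper-quartile scaling, and 0 lower with DESeq2 and 0 to 1 lower when leaving out a library. Of OAS-like fold genes 2 were lower under upper-quartile scaling and 0 with no filter, DESeq2, the replicate block, no robust prior or any library left out. Other interferon-stimulated genes called lower numbered 1 with DESeq2 and 0 to 3 when leaving out a library. Blood markers called lower numbered 1, in place of 2, with no filter, DESeq2, limma-voom, the replicate block or no robust prior, and 1 to 2 when leaving out a library. Endothelial markers called lower numbered 1, in place of 3, with DESeq2, and 1 to 2 when leaving out a library. Single genes that changed sign were 2 uncalled genes when leaving out a library, AKAP7 (-0.15 to 0.48) and IFNE (-0.088 to 0.41). The cause was not tested. Of 37 other named genes, 33 kept direction and call in every alternative. Depth limits the precision of OAS2, with 55 to 228 reads a library, and of AKAP7, with 63 to 105.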
